A study of Mus musculus with 4 samples.

Results

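The genes described here encode the chondroitin sulfate proteoglycans of the lectican family, the tenascins that cross-link them, and proteins that bind or accompany this matrix in the brain. The 10 genes are the lecticans Bcan (brevican), Ncan (neurocan), Vcan (versican) and Acan (aggrecan), the tenascins Tnc and Tnr, the receptor phosphatase Ptprz1, the link protein Hapln1, the transmembrane proteoglycan Cspg5 and the glypican Gpc1. Every probe annotated to 1 of these symbols was taken, which gave 26 of the 45259 probes of the array and 10 of its 19057 named genes. Of the 26, 18 probes of 8 genes were detected, meaning a detection p under 0.05 on at least 2 of the 4 arrays, among 18237 detected probes in all.

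Lecticans carry a hyaluronan-binding domain at one end and a lectin-like domain at the other, by which they hold hyaluronan and tenascins together. Link proteins lock the lectican onto hyaluronan, and the dense form of this lattice around some neurons is the perineuronal net. In neural stem cell niches the same family is made by radial glia, astrocytes and oligodendrocyte precursors, where tenascin-C and the ligands of Ptprz1 are known to bear on proliferation and differentiation.

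The cells were neural stem and progenitor cells (NSPC) from the neocortex of a Cre/LoxP conditional transgenic mouse line on the C57BL/6 strain, grown as floating neurospheres. All cultures received both growth factors, EGF and FGF2, at 20 ng/ml each and were harvested after 5 days. One group overexpressed Bmi1, a polycomb group protein that represses genes through chromatin, and the other was the transgenic control. There were 2 biological replicates of each, with 1 Illumina bead array per replicate. No source used here gives the promoter or cell type that drives Cre or the transgene, the age of the mice or any pooling of animals. Of the markers of radial glia and neural stem cells, 6 of 8 were detected, among them Nes and Sox2, while Pax6 and Prom1 were not.

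The scanner table and the processed table of the series give the group names the other way round from each other. In the scanner table, used throughout below, 2 arrays are headed as controls and 2 as Bmi1 cells, and each column of the processed table matched 1 array of the scanner table at a rank correlation of 1.00 and no other above 0.899. The processed columns filed under the controls matched the arrays headed Bmi1, and those filed under Bmi1 matched the arrays headed control. Arrays are therefore called labelled Bmi1 or labelled control by the scanner table, and each direction below turns if the other table is right. The Bmi1 arrays share 1 heading, so they are called first and second by their place in the table.

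The single probe of Bmi1 itself read 53.3 and 77.7 on the arrays labelled Bmi1, against 79.4 and 62.7 on the arrays labelled control (background-subtracted signal, the scanner unit used below). The arrays of the groups overlapped, and the log2 difference was 0.24 (SE 0.29, limma adjusted p = 0.680), turning to -0.13 without the second Bmi1 array and to -0.10 with median scaling over all probes. The gene thus does not check the labels, and no source used here says whether its probe reads the transgene. Detected probes numbered 17742 and 16495 on the first and second Bmi1 array, and 18242 and 18208 on control arrays 1 and 2. Control array 1 stood apart in sex, with signals of 114.7 to 970.5 over the 4 probes of Xist, which is made in female cells, where no other array passed 8.4.

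The start regions of 4 members are shown because they span what the arrays gave, Bcan and Tnr with lower signals on the arrays labelled Bmi1, Tnc with higher ones, and Ncan with overlapping groups. Each is the 250 bases before a start annotated in RefSeq (GRCm38.p6), written 5′ to 3′ on the gene's strand. That start need not be the outer end of the gene. By the annotated span of each gene, the Bcan region lies inside the gene and those of Ncan and Tnr overlap its first bases. The Tnc region ends at the border of its gene. Capitals stand on matches to the letters GGGCGG (a GC box), TGACTCA (the AP-1 site) or ACAAAG (a SOX site) on either strand. The regions lie at chr3:88000357-88000606 for Bcan and chr8:70120845-70121094 for Ncan, both on the minus strand, at chr4:64047016-64047265 for the first of the 2 starts of Tnc on the minus strand, and at chr1:159523519-159523768 for Tnr on the plus strand.
Bcan: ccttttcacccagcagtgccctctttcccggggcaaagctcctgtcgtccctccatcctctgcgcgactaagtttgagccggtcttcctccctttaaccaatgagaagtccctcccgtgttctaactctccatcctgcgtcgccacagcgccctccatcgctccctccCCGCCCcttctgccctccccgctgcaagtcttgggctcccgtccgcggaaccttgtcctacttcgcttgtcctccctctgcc
Ncan: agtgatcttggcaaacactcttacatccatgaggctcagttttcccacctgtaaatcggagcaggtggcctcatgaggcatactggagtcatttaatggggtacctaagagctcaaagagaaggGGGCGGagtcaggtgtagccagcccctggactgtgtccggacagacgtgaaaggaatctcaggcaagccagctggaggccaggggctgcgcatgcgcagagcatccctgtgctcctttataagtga
Tnc: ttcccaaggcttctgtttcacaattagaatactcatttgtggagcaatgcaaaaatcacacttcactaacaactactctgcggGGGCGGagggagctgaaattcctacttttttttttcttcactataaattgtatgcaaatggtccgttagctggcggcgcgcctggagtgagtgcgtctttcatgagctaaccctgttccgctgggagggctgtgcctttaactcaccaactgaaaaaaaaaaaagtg
Tnr: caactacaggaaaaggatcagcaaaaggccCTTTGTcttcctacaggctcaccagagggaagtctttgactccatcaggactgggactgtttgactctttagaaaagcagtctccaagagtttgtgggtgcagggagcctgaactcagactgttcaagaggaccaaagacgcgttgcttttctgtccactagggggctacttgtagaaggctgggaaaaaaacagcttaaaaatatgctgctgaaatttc
Of the 10 genes, 8 had a region in that table, all but Cspg5 and Gpc1. Of the 4 regions shown, those of Bcan, Ncan and Tnc each held 1 GC box, and that of Tnr held none. Over all 32851 such regions the GC box stood in 32.7%, the AP-1 letters in 4.46% and the SOX letters in 16.5%. The AP-1 letters were in none of the members' regions, and the only SOX match was that of Tnr. The CpG dinucleotides numbered 16 for Bcan, 6 for Ncan, 8 for Tnc and 2 for Tnr, against a median of 6 over all regions. These matches describe letters within the windows and carry no measurement of binding.

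The matrix genes did not move as a block between the groups. Bcan and Tnr had lower values on the arrays labelled Bmi1, Tnc and Gpc1 had higher ones, and Ncan, Ptprz1 and most probes of Vcan and Cspg5 overlapped between the groups. None of these passed the test over all detected probes: with limma and Benjamini-Hochberg adjustment 0 of 18237 probes had an adjusted p under 0.05, and 808 probes tied at the lowest value of 0.142. At an unadjusted p under 0.05 there were 6 of the 18 member probes, from 4 genes, against 20.8% of all detected probes, with 3 lower (10.1% of all) and 3 higher (10.7% of all). The arrays of the groups did not overlap for 10 of the 18, against 53.6% of all detected probes, 5 of them lower (27.3% of all) and 5 higher (26.3% of all). The median log2 difference of the 18 was 0.08, and that of all detected probes was -0.01. The 6 became 1 without the second Bmi1 array and 2 without either control array, and leaving out the first Bmi1 array gave 5. By main probe, the detected probe of highest mean, 4 of 8 genes had an unadjusted p under 0.05, against 23.4% of 10044 named genes, with 2 lower (10.3% of all) and 2 higher (13.1% of all), and 4 did not overlap, against 56.4%. Only 2 arrays stand behind each mean, which limits its precision. The SE and p-values rest only on the spread between these arrays, with the variance of each probe drawn by limma toward that of all detected probes.

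**Figure D1:**
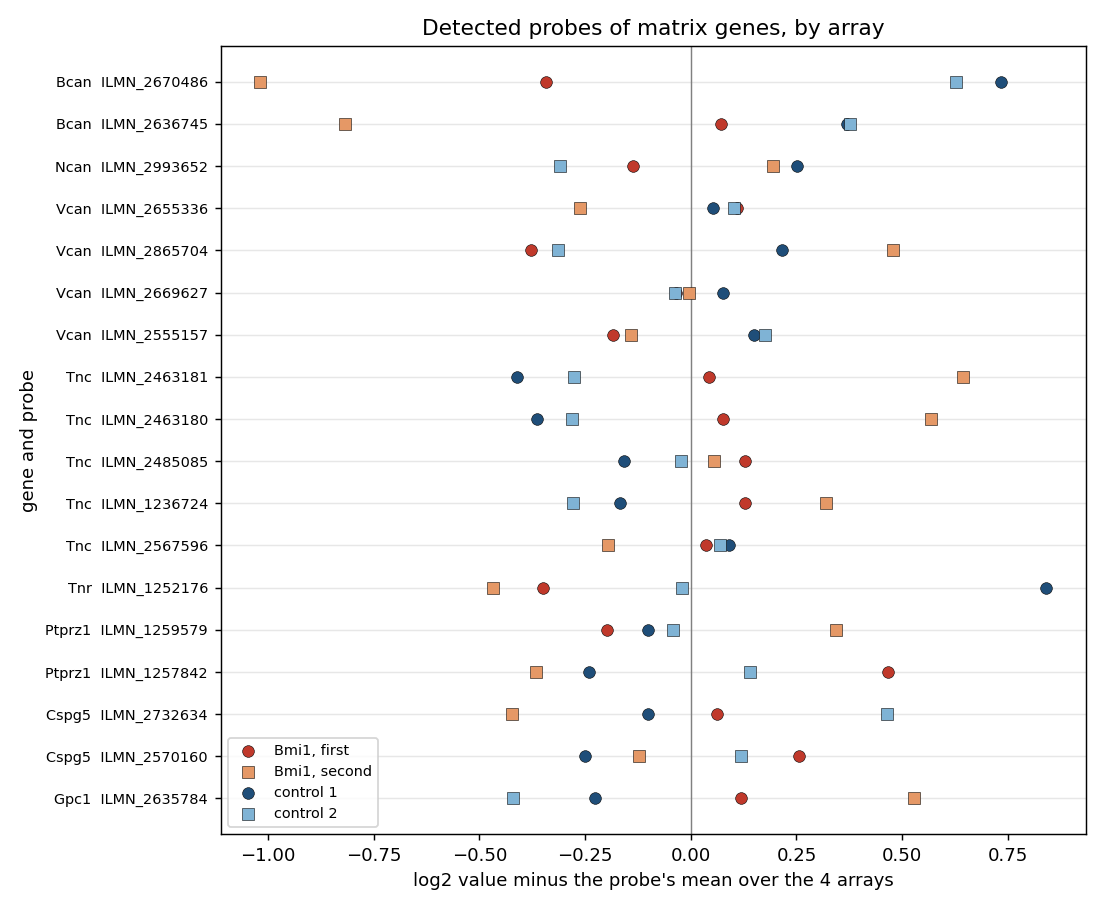
Normalized log2 value of each detected member probe on each array, minus the probe's mean over the 4 arrays (x axis, log2 units), with 1 row per probe; red and orange points are the arrays labelled Bmi1, blue points the arrays labelled control. For Bcan both red and orange points lie left of both blue ones, for Gpc1 and the 2 brighter probes of Tnc they lie right of them, and for Ncan and Ptprz1 the colours interleave.

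Brevican, a lectican made by glia and enriched in the adult brain matrix, gave the largest difference among the members. Its main probe (ILMN_2670486) had signals of 1308 and 696 on the arrays labelled Bmi1, against 2924 and 2819 on the arrays labelled control. Both control arrays lay close together and above both Bmi1 arrays, of which the second was the dimmer. On the normalized log2 scale it stood at 10.05 ± 0.48 in the arrays labelled Bmi1 and 11.41 ± 0.07 in the controls (mean ± SD, n = 2 each), a difference of -1.36 (SE 0.26, 95% interval -1.98 to -0.75), or 0.389-fold, with a limma adjusted p = 0.142. The difference was larger than the gap between the replicates of either group, at 0.68 log2 between the Bmi1 arrays and 0.11 between the controls. It stayed between -1.70 and -1.02 when each array was left out in turn.

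A further Bcan probe (ILMN_2636745) had the same sign. It gave 732 and 316 on the arrays labelled Bmi1, against 966 and 998 on the arrays labelled control, with a log2 difference of -0.75 (SE 0.30, limma adjusted p = 0.223). Here the Bmi1 arrays differed from each other by 0.89, more than the groups did, and without the second Bmi1 array the difference was -0.30 while without the first it was -1.19. The remaining Bcan probe (ILMN_2995619) was detected on control array 1 only, at a signal of 8.4, and was not tested.

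Neurocan, the lectican typical of the developing brain, did not separate the groups. Its 1 probe gave 1454 and 1658 on the arrays labelled Bmi1, against 2048 and 1413 on the arrays labelled control. Control array 1 was the highest and control array 2 the lowest of the 4. The log2 difference was 0.06 with a 95% interval of -0.54 to 0.66 (limma adjusted p = 0.922), and its sign turned to -0.11 without the second Bmi1 array, to -0.22 without control array 2 and to -0.13 with median scaling over all probes. The gap between the controls alone was 0.56.

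Versican, the lectican of migrating and precursor cells, stood near the detection limit with all 6 of its probes. No Vcan probe reached a signal above 21.6 on any array, 4 of the 6 were detected on at least 2 arrays, and differences here compare small numbers. The main probe (ILMN_2655336) gave 18.2 and 9.7 on the arrays labelled Bmi1, against 18.5 and 21.6 on the arrays labelled control, with a log2 difference of -0.15 (95% interval -0.66 to 0.35). A probe annotated to a cDNA record and not to the reference transcript (ILMN_2555157) was below detection on both Bmi1 arrays, at 2.8 and 3.7, and detected on both controls, at 10.6 and 11.6. Against the lowest detected level this is at least 1.05-fold lower on the arrays labelled Bmi1, and the fitted difference was -0.33 (limma adjusted p = 0.375). The other tested probes stood at 0.10 and -0.04. The sign of each of the 3 reference-transcript probes tested turned under at least 1 way of scaling.

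Aggrecan, the lectican that marks perineuronal nets, was not detected. Its 2 probes gave signals from -7.8 to 2.2 over the 4 arrays and were below detection on each of them. Hapln1, the link protein of those nets, was likewise below detection on all 4 arrays, at -3.2 and 1.2 on the arrays labelled Bmi1, against -2.5 and -3.6 on the arrays labelled control. No comparison between the groups can be made for either gene.

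**Figure D2:**
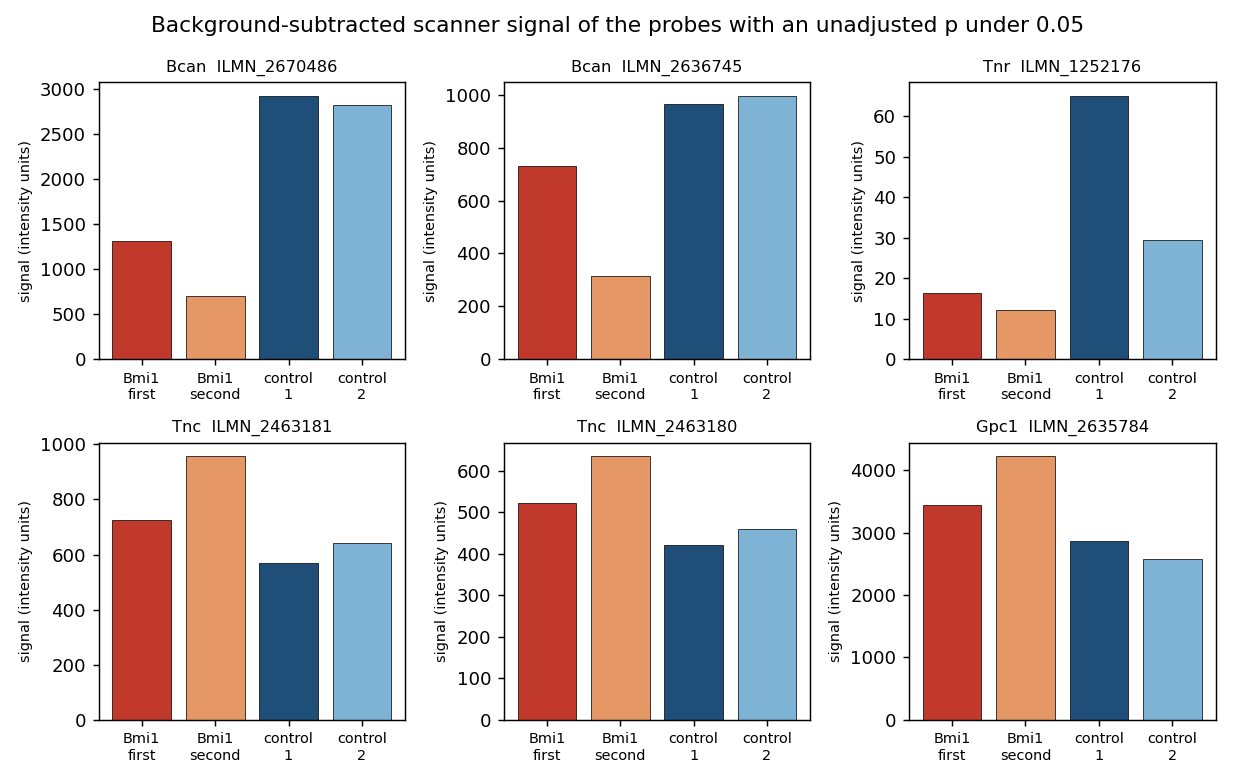
Background-subtracted scanner signal (y axis, linear intensity units from 0, a separate scale in each panel) of the 6 member probes with an unadjusted p under 0.05, with 1 bar per array, the arrays labelled Bmi1 left of the arrays labelled control. The 2 Bcan probes and Tnr are lower in both red and orange bars than in both blue ones, and the 2 Tnc probes and Gpc1 are higher. The bars are single arrays and carry no error.

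Tenascin-R, a tenascin of oligodendrocyte lineage cells and some neurons that binds the lectin domain of the lecticans, had low signals on every array. Its 1 probe gave 16.2 and 12.2 on the arrays labelled Bmi1, against 65.1 and 29.5 on the arrays labelled control. Both controls lay above both Bmi1 arrays, and the controls differed by 0.86 log2 between themselves. The log2 difference was -0.82 (SE 0.30, 95% interval -1.52 to -0.12, limma adjusted p = 0.194). It was -0.39 without control array 1 and -1.25 without control array 2.

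Tenascin-C, the tenascin of embryonic radial glia and reactive astrocytes, had higher values on the arrays labelled Bmi1 by its brighter probes. The main probe (ILMN_2463181) gave 726 and 957 on the arrays labelled Bmi1, against 569 and 644 on the arrays labelled control, and the next (ILMN_2463180) gave 523 and 635 against 422 and 460. In both, each Bmi1 array lay above each control array. Their log2 differences were 0.69 (SE 0.25, limma adjusted p = 0.194) and 0.64 (SE 0.23, limma adjusted p = 0.191). Without the second Bmi1 array they were 0.39 and 0.40, and without the first they were 0.99 and 0.89.

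The dimmer Tnc probes were less uniform. Of the 7 probes, 5 were tested, and 4 of these were higher on the arrays labelled Bmi1. ILMN_1236724 gave 15.6 and 16.8, against 10.6 and 8.4 on the arrays labelled control, with a difference of 0.45 (limma adjusted p = 0.256), and ILMN_2485085 stood at 0.18. The probe annotated to a cDNA record (ILMN_2567596) stood at -0.16, and with median scaling at 0.17. The 2 remaining probes were below detection on all 4 arrays.

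**Figure D3:**
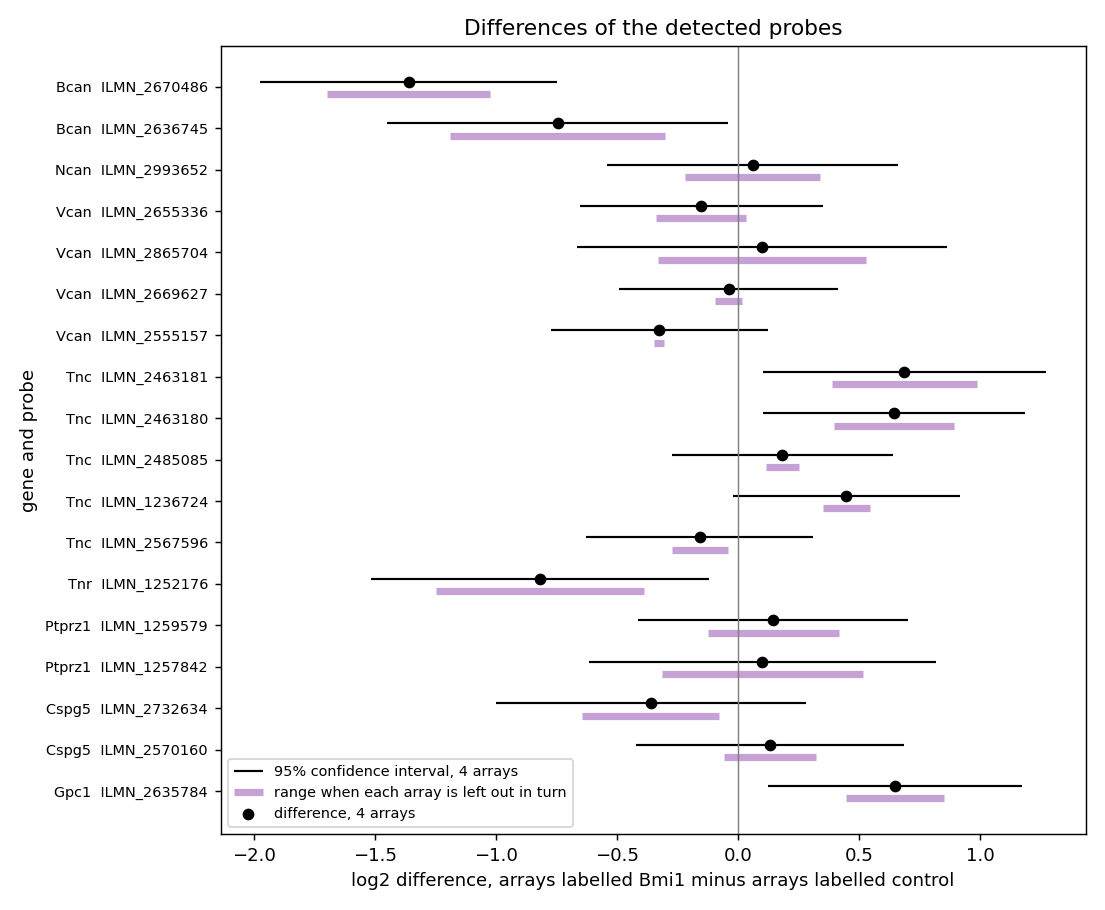
Log2 difference of each detected member probe, arrays labelled Bmi1 minus arrays labelled control (x axis), with the 95% confidence interval of the limma fit on 4 arrays (black line) and the range of the difference when each array is left out in turn (purple band). Both Bcan intervals and that of Tnr lie below 0, those of Gpc1 and 2 Tnc probes lie above 0, and the rest span it.

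Ptprz1, a receptor phosphatase of radial glia and oligodendrocyte precursors whose secreted form, phosphacan, binds tenascins, was bright and overlapped between the groups. Its main probe gave 1389 and 1836 on the arrays labelled Bmi1, against 1596 and 1688 on the arrays labelled control. The Bmi1 arrays were the lowest and the highest of the 4, and the log2 difference was 0.14 (95% interval -0.41 to 0.70). Its sign turned without the second Bmi1 array (-0.13) and with median scaling over all probes (-0.04). The probe annotated to a cDNA record (ILMN_1257842) had the Bmi1 arrays in the other order, at 132.3 and 53.3, against 85.7 and 125.1 on the arrays labelled control, and a difference of 0.10 (95% interval -0.62 to 0.82).

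Cspg5, neuroglycan C, a membrane proteoglycan with an EGF-like domain, had probes of opposite sign. The main probe gave 799 and 478 on the arrays labelled Bmi1, against 769 and 1162 on the arrays labelled control, and the probe annotated to a cDNA record gave 279 and 172 against 217 and 295. In both probes the second Bmi1 array was lower than the first and control array 1 lower than control array 2. The replicates were farther apart than the groups. The gaps between Bmi1 and between control arrays were 0.49 and 0.57 log2 for the main probe, and 0.38 and 0.37 for the other. The log2 differences were -0.36 (SE 0.27) and 0.13 (SE 0.24), with limma adjusted p of 0.489 and 0.792. Leaving out each array moved the main probe between -0.64, without control array 1, and -0.079, without control array 2, and the other between -0.057 and 0.32.

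Gpc1, a membrane-anchored heparan sulfate proteoglycan that presents FGF to its receptors, had higher values on the arrays labelled Bmi1 by its 1 probe. The signals were 3447 and 4224 on the arrays labelled Bmi1, against 2864 and 2573 on the arrays labelled control. Both Bmi1 arrays lay above both controls, and the log2 difference was 0.65 (SE 0.22, 95% interval 0.12 to 1.17, limma adjusted p = 0.183). It ranged from 0.44 without the second Bmi1 array to 0.85 without the first.

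In the arrays of this mixed culture fewer cells of a type and less RNA per cell cannot be told apart, and markers of glia differed between the same arrays. Sums of a marker list below are of scanner signals before normalization, on arrays whose mean signal was 215 and 191 for Bmi1 and 228 and 233 for control, whereas medians and differences are of normalized log2 values. Markers are counted by their main probe, by which 4928 of all 10044 named genes were lower and 10.3% were lower at an unadjusted p under 0.05. Of 8 astrocyte markers 7 were detected, all but S100b, with a median difference of -0.60. Of these, 6 had lower values on the arrays labelled Bmi1, 4 of them at an unadjusted p under 0.05. Gfap, the intermediate filament of astrocytes, gave 328 and 49.2 on the arrays labelled Bmi1, against 875 and 1619 on the arrays labelled control, a difference of -2.74 (SE 0.63, limma adjusted p = 0.142). Aqp4, the astrocyte water channel, gave 334 and 182, against 863 and 612 on the arrays labelled control, a difference of -1.21 (SE 0.27, limma adjusted p = 0.142). As for Bcan, both Bmi1 arrays lay below both controls for Gfap and Aqp4, and the second Bmi1 array was the lowest. The same held for Aldoc and for Nkx2-2, an oligodendrocyte precursor marker. For Aldh1l1 and the precursor marker Olig2 both Bmi1 arrays were also lower, but the first was the lowest. The precursor markers Cspg4, Pdgfra and Olig1 went the other way. Both Bmi1 arrays lay above both controls, with differences of 0.46, 0.24 and 0.09. The precursor markers Gpr17 and Sox10 overlapped between the groups. Gja1 and Slc1a2 overlapped between the groups. The summed signal of the astrocyte list was 27228 and 27575 on the arrays labelled Bmi1, against 28900 and 32842 on the arrays labelled control. Most of that sum was Slc1a3, a glutamate transporter and the 1 detected marker of the list with higher values, at 18637 and 20098 against 15381 and 18869 on the arrays labelled control (difference 0.33, limma adjusted p = 0.414).

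Of 7 markers of differentiated oligodendrocytes 4 were detected, all 4 lower and 3 at an unadjusted p under 0.05, with a median difference of -1.71. Their list summed to 3099 and 1590 on the arrays labelled Bmi1, against 10791 and 4013 on the arrays labelled control. Mbp stood at -3.84 by its main probe and at -1.23 and -0.25 by its other detected probes, and Cnp at -1.36 and -1.17. Mog and Mobp were below detection. Like Tnr, this list was highest on control array 1, at a median of 1.57 above its mean over the 4 arrays, and 0.14 on control array 2.

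Of 7 oligodendrocyte precursor markers, all detected, 4 were lower and 3 higher on the arrays labelled Bmi1, with a median difference of -0.31 and 2 of the lower ones at an unadjusted p under 0.05. They summed to 20786 and 17223 on the arrays labelled Bmi1, against 24692 and 19938 on the arrays labelled control. The arrays of the groups did not overlap for 5 of the 7, with 2 lower and 3 higher. Over all 10044 named genes 2677 were lower and 2984 higher without overlap. Of the 6 detected markers of radial glia and neural stem cells 4 were lower and 2 higher, with a median of -0.02 and sums of 5399 and 4650 against 4219 and 7476.

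Of 8 neuronal markers 5 were detected, 2 lower and 3 higher, with a median of 0.09. None had an unadjusted p under 0.05 by main probe, and Tubb3, Snap25 and Stmn2 were below detection. Dcx was lower without overlap, at -0.79 by its main probe (limma adjusted p = 0.247). Its other detected probe stood at -0.94, with an unadjusted p under 0.05 (limma adjusted p = 0.166). Syt1 and Rbfox3 were higher without overlap, at 0.36 and 0.28 by main probe. The unscaled sums of the list, mostly of Map2, were 2716 and 1874 on the arrays labelled Bmi1, against 2851 and 2833 on the arrays labelled control, so sum and median differ in direction. Of the 3 markers of parvalbumin neurons, around which perineuronal nets form, Kcna1 was below detection, the other two had differences of -0.55 (Pvalb) and -0.006 (Kcnc1), and the sums were 754 and 675 against 856 and 944. Endothelial markers (0 of 5) and markers of pericytes and fibroblasts (0 of 7) were below detection. Of 5 microglial markers 2 were detected, both on the arrays labelled Bmi1 and not on the controls, and the list summed to at most 28.5 on any array. The part of these cell types in the differences of Bcan, Tnr and Tnc was not tested.

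**Figure D4:**
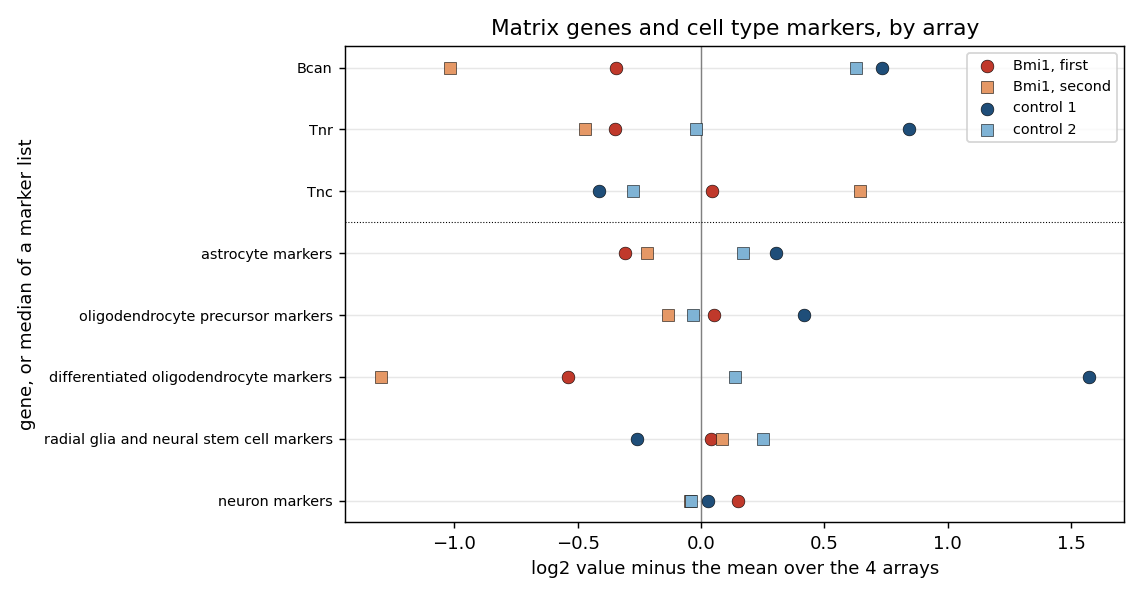
Normalized log2 value on each array minus the mean over the 4 arrays (x axis), for the main probes of Bcan, Tnr and Tnc (above the dotted line) and as the median over the detected genes of 5 marker lists (below it); red and orange are the arrays labelled Bmi1, blue the arrays labelled control. Bcan separates the groups with the 2 controls close together, whereas Tnr and the differentiated oligodendrocyte list have control array 1 far to the right of control array 2.

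Among the genes that make, bind and cut this matrix, values lay on both sides of 0 in each list, and no gene of the 5 lists passed the adjusted test with limma. These genes are counted by their main probe, of which 23.4% had an unadjusted p under 0.05 over all 10044 named genes, at a median log2 difference of 0.01. The list of hyaluronan genes and link proteins had 5 of 6 detected genes higher on the arrays labelled Bmi1, where 5116 of the 10044 named genes were higher. Of its link proteins only Hapln4 was detected, and by main probe Cd44, Hapln4 and Cemip2 overlapped between the groups. Cemip2 stood at 0.21 by its main probe and at 0.58 and 0.86 by its other detected probes. Those other Cemip2 probes each had an unadjusted p under 0.05 (limma adjusted p of 0.186 and 0.152). The other detected Cd44 probes stood at 0.45 and 0.41. By main probe the list had a median of 0.46, and 1 gene with an unadjusted p under 0.05. That gene was Hyal2, a hyaluronidase anchored at the cell surface, with signals of 3275 and 3218 on the arrays labelled Bmi1, against 1668 and 2175 on the arrays labelled control, and a difference of 0.94 (SE 0.22, limma adjusted p = 0.142). Has2, a hyaluronan synthase, stood at 0.60 (0.32 without the first Bmi1 array and 0.38 without control array 1), and Cd44, the hyaluronan receptor, at 0.72, with 0.20 without control array 1.

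Enzymes of chondroitin sulfate synthesis had 15 detected genes, 9 lower and 6 higher, with a median of -0.08 and 2 at an unadjusted p under 0.05. B3gat3, which completes the linker that joins the sugar chain to the core protein, stood at -0.98 (SE 0.25, limma adjusted p = 0.142), with signals of 39.5 and 33.7 on the arrays labelled Bmi1, against 139.5 and 90.5 on the arrays labelled control. Its other detected probes stood at -0.90 and -0.15. The chondroitin sulfotransferases Chst7 and Chst3 had opposite signs, with Chst7 at 1.00 (SE 0.28, limma adjusted p = 0.146) and Chst3 at -0.46 (SE 0.20, limma adjusted p = 0.256).

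Among other proteoglycans and tenascins 7 detected genes were lower and 7 higher, with a median of -0.07 and 3 at an unadjusted p under 0.05. Aplp2, an amyloid precursor-like protein of which some forms carry chondroitin sulfate, stood at 0.70 (SE 0.21), its dimmer probe at -0.05. The related App stood at -0.59 (SE 0.24), with its 3 dimmer probes between -0.08 and 0.06 and a value of -0.33 without control array 1. The syndecan Sdc3 stood at -0.56 (SE 0.21), and Cspg4, the NG2 proteoglycan of oligodendrocyte precursors, at 0.46, with 0.14 without control array 1. Adjusted p with limma was 0.154 for Aplp2, 0.227 for App, 0.206 for Sdc3 and 0.357 for Cspg4.

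Ligands and receptors of the matrix had 16 detected genes, 7 lower and 9 higher, with a median of 0.01 and 6 at an unadjusted p under 0.05, 3 in each direction. Itgav, an integrin subunit that binds tenascin-C, stood at 0.82 (SE 0.21, limma adjusted p = 0.142) with its other probe at -0.03. Nptx2, a secreted pentraxin of synapses, stood at -0.90 (SE 0.25, limma adjusted p = 0.148), and Ncam1, an adhesion molecule that binds neurocan, at -0.86 (SE 0.28, limma adjusted p = 0.168). The 3 dimmer Ncam1 probes stood at 0.17, 0.04 and -0.53, and the main one at -0.56 without the second Bmi1 array. The growth factor ligands of Ptprz1 were Ptn (pleiotrophin), which was bright at 13455 and 11502 on the arrays labelled Bmi1, against 14701 and 16209 on the arrays labelled control, with a difference of -0.15 that turned to 0.04 with median scaling, and Mdk (midkine), at -0.59, with its other probe at 0.12 and a value of -0.08 without the second Bmi1 array. Cntn1, a contactin bound by Ptprz1, stood at 0.36. None of these 3 had an unadjusted p under 0.05.

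Of 11 detected matrix proteases and inhibitors 6 were lower and 5 higher, with a median of -0.05 and 3 at an unadjusted p under 0.05. Adamts9, a protease that cuts versican and aggrecan, gave 567 and 678 on the arrays labelled Bmi1, against 195 and 360 on the arrays labelled control. Both Bmi1 arrays lay above both controls, and the difference of 1.45 (SE 0.31, limma adjusted p = 0.142) ranged from 1.05 without control array 1 to 1.85 without control array 2. Mmp14, a membrane-bound metalloprotease, stood at 0.62 (SE 0.19, limma adjusted p = 0.160), and Timp3, an inhibitor of these proteases held in the matrix, at -0.75 (SE 0.26, limma adjusted p = 0.182), with its other probe at -0.14 and a value of -0.42 without the second Bmi1 array.

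**Figure D5:**
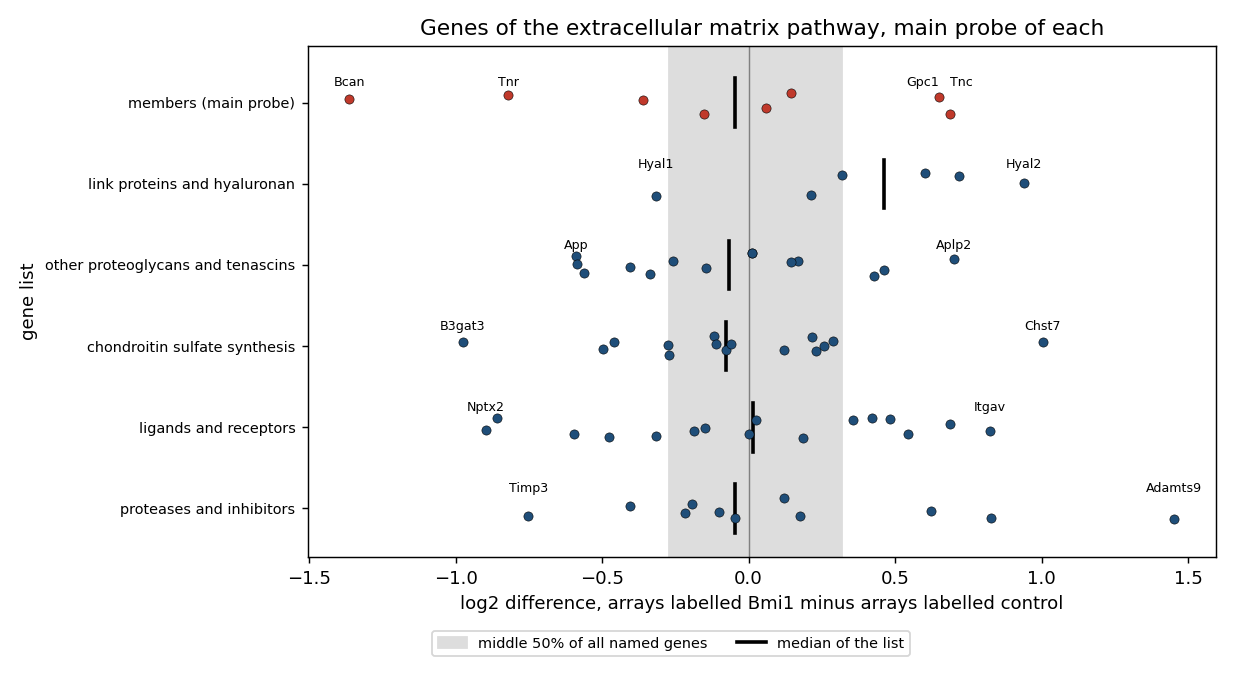
Log2 difference, arrays labelled Bmi1 minus arrays labelled control (x axis), of the main probe of each detected gene, for the 10-gene set (8 detected, red) and 5 lists of the pathway (blue), with the median of each list (black bar) and the middle 50% of all named genes (grey). Vertical scatter within a row has no meaning, and the outermost genes of each list are named. Points lie on both sides of the grey band in each list.

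The patterns over the 4 arrays were compared for the 2 members with the largest differences, over 10036 named genes. The genes most like Bcan, by the root mean square difference of centred log2 values over 4 arrays, were Bcat2 (0.03), Arfip2 (0.06) and Bcl9l (0.07), with differences between the groups of -1.40, -1.26 and -1.23. Those most like Tnr were Scg2 (0.03), C1ql1 (0.04) and Mb21d2 (0.05), and of these only Mb21d2 was detected on all 4 arrays, with a difference of -0.84 that was -0.41 without control array 1. Scg2 and C1ql1 were below detection on both arrays labelled Bmi1 and detected on both controls, so their likeness to Tnr rests in part on values not above background. Against the lowest detected level they were at least 1.53-fold and at least 1.54-fold lower on the arrays labelled Bmi1 (limma adjusted p of 0.189 and 0.168). The likeness is a description over 4 arrays.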

How the data were processed

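The scanner table holds background-subtracted intensity values per probe and array, per the file headers, beside a deposited detection column. That column is not a p-value but 1 minus one: it ranked with the signal at a correlation of 0.980 to 0.987, and 31.2 to 33.9% of signals were at or below 0. The authors' processed table holds log2 values made with lumi, per the submitters' processing notes, with the version not given in the sources used here, and served as an alternative. Of the scanner rows, 22 without an identifier were left out, which left 45259 probes. Symbols came from the platform annotation and were updated to the RefSeq symbol through the gene ID where that ID was found, for 34794 of 34872 probes with 1 symbol.

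Background and scale were handled by the neqc function of limma 3.58.1 (R 4.3.3): normexp from the detection p, offset 16, log2 and quantile normalization. Probes with a detection p under 0.05 on at least 2 of 4 arrays were tested singly with lmFit and eBayes, with Benjamini-Hochberg adjustment over all 18237, and limma was tested on simulated data first. Every difference is Bmi1 minus control by the scanner headings. The 2 replicates of each group are biological per the series' design text, with 1 array each.

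All probes of the 10 genes are described. From each of 5 further lists the 3 genes of lowest p by main probe were named, with Ptn, Mdk, Cd44, Cspg4, Cntn1 and Has2 always named, and for the 2 members of largest difference the 3 genes of most similar pattern. Members and lists were chosen with earlier results of these data known. Alternatives were the detection filter, the scaling, the background correction, the offset, 1 probe per gene, an intensity trend, the processed table with and without the replicate number as a block, and leaving out each array. Protein sequences were not analysed here. The replicate numbers do not pair the samples by any label, and the deviations of same-numbered arrays correlated at -0.20 over probes.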

Additional observations from a re-analysis of the deposited data

How the results depend on the processing

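No member probe had an adjusted p under 0.05 with limma under any alternative, and the smallest was 0.0540 (Bcan, without the first Bmi1 array). Over all probes, leaving out each array gave 0 to 61 calls at that threshold, 61 without the first Bmi1 array and 10 without control array 2, and 1632 to 4915 at an unadjusted p under 0.05. Member probes at an unadjusted p under 0.05, 6 as reported, numbered 1 to 5 without each array in turn and 3 with median scaling over all probes, an alternative chosen after seeing the data. Median scaling moved the median of all probes to 0.14 (2939 higher and 1285 lower at an unadjusted p under 0.05, against 1958 and 1835), and over all probes to -0.21 (615 and 3670), so directions are relative to that shift.

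Signs turned with median scaling for Tnc ILMN_2567596 (0.17), Vcan ILMN_2669627 (0.27), Vcan ILMN_2655336 (0.078) and Ptn (0.044). With median scaling over all probes they turned for Ptprz1 ILMN_1257842 (-0.24) and ILMN_1259579 (-0.037), Vcan ILMN_2865704 (-0.043), Tnc ILMN_2485085 (-0.028), Cspg5 ILMN_2570160 (-0.19), Ncan (-0.13) and Bmi1 (-0.10). Without each array in turn the ranges that crossed 0 were -0.32 to 0.52 for Ptprz1 ILMN_1257842, -0.13 to 0.42 for Ptprz1 ILMN_1259579, -0.33 to 0.53 for Vcan ILMN_2865704, -0.096 to 0.018 for Vcan ILMN_2669627, -0.34 to 0.032 for Vcan ILMN_2655336, -0.057 to 0.32 for Cspg5 ILMN_2570160, -0.22 to 0.34 for Ncan and -0.13 to 0.61 for Bmi1. The causes were not tested. Both tested Bcan probes, Tnr, Gpc1 and the 2 brighter Tnc probes kept their sign in each alternative on the scanner table. So did Cspg5 ILMN_2732634, Tnc ILMN_1236724 and Vcan ILMN_2555157. Where the arrays of the groups do not overlap, leaving out an array cannot turn the sign, so that alternative is no check of direction there.

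With the processed table and the groups as its columns name them, every sign turned, because that table names the groups the other way. With and without the replicate block its values were the same for the members: Bcan 0.71 and 1.34, Ncan -0.058, Vcan -0.054, 0.18, 0.019 and 0.073, Tnc 0.091, -0.66, -0.22, -0.60 and -0.099, Tnr 0.48, Ptprz1 -0.087 and -0.14, Cspg5 -0.12 and 0.35, Gpc1 -0.64. For the other named genes they were Hyal2 -0.93, Has2 -0.38, Cd44 -0.55, Aplp2 -0.69, Sdc3 0.56, App 0.59, B3gat3 0.71, Chst7 -0.97, Chst3 0.40, Itgav -0.51, Nptx2 0.72, Ncam1 0.82, Adamts9 -1.34, Mmp14 -0.57, Timp3 0.71, Ptn 0.16, Mdk 0.39, Cspg4 -0.40, Cntn1 -0.34, Bmi1 -0.18, Bcat2 0.99, Arfip2 1.15, Bcl9l 1.09, Scg2 0.45, C1ql1 0.45, Mb21d2 0.82. At an unadjusted p under 0.05 this table gave 3809 probes without the replicate block, 3394 with it, and 4367 with the numbers crossed (added after seeing the data), each with 0 at an adjusted p under 0.05 with limma. The block changed no adjusted call.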
